A study of Mus musculus with 27 samples.

Results

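Neural stem cells of the adult mouse subventricular zone (NSC) were compared with late neuroblasts of the olfactory bulb (LNB) in total mRNA of sorted cells, a step that passes over the early neuroblasts (ENB) between them. The members are the 6 raw count columns of these stages, 3 NSC and 3 LNB libraries of the 27 libraries of the series, and the comparison runs across the 17592 genes that passed a filter on low counts. NSC were sorted from the subventricular zone of TiCRY mice, whose tamoxifen-inducible Cre recombinase is driven by Tlx, another name of Nr2e1. LNB were sorted from the olfactory bulb of DiCRY mice, whose inducible Cre is driven by Dcx. Both lines were on a C57BL/6 background and carried an eYFP reporter together with RiboTag, an HA epitope that Cre activity adds to the ribosomal protein Rpl22. The animals were males of 8 to 12 weeks and received 2 to 3 oral doses of 200 mg per kg tamoxifen. Each library holds poly(A) mRNA of 200 to 500 live eYFP-positive cells from 1 to 2 mice, amplified by Smart-seq2. Stage, Cre line and tissue change together in this design and cannot be told apart. In sorted bulk samples, fewer cells of a type and less RNA of it per cell also cannot be told apart.

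Stem cells of the adult subventricular zone are glia-like cells that share much of their transcriptome with astrocytes. When activated they divide and pass through transit-amplifying progenitors to neuroblasts, which migrate in chains along the rostral migratory stream. In the olfactory bulb the neuroblasts leave the chains, stop dividing and mature into GABAergic granule and periglomerular interneurons.

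The LNB libraries differed among themselves more than the NSC libraries did, and this bears on every result below. The 6 libraries held 6031319 to 15005452 counts. Spearman correlations of log2 levels were 0.952 to 0.958 among the NSC libraries, 0.910 and 0.918 between LNB replicate 1 and the other LNB libraries, and 0.850 between LNB replicates 2 and 3. Between NSC and LNB libraries they were 0.833 to 0.866, so LNB replicates 2 and 3 were as far apart as libraries of different stages. The first principal component of the 6 libraries (44.5% of the variance) separated the stages and the second separated LNB replicate 2 from LNB replicate 3. LNB replicates 2 and 3 share animals with ENB libraries. Replicates 1 and 3 of both stages carry the second index GTAAGGAG and replicate 2 of both stages carries ACTGCATA, so the index is balanced between the groups. The share of counts in genes that overlap ribosomal RNA was 0.677%, 12.3% and 1.13% in NSC replicates 1 to 3 and 2.23%, 7.32% and 2.27% in LNB replicates 1 to 3, highest in replicate 2 of each stage.

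Most genes of cell division were lower in LNB (35 of 55 mitosis and 35 of 46 replication genes) and most neuroblast genes were higher (30 of 42). Of 35 stem cell and radial glia genes, 4 passed the test. Of 17592 genes tested, 1203 (6.84%) passed an adjusted p of 0.05 (quasi-likelihood test of edgeR, p-values adjusted by Benjamini-Hochberg). In LNB, 748 genes (4.25%) were higher and 455 (2.59%) were lower, and the median log2 change (LNB minus NSC) over all genes tested was 0.10. The number of calls rests on few libraries: 401 genes passed without NSC replicate 2, 531 without NSC replicate 1, 586 without NSC replicate 3 and 614 without LNB replicate 1. The NSC and LNB levels of 5531 genes (31.4%) did not overlap. A stricter group kept its call when any 1 of the 6 libraries was left out, had levels that did not overlap and reached a mean of 10 CPM (counts scaled to library size, after TMM scaling) in the higher stage. It held 193 higher genes (1.1%) and 139 lower genes (0.79%), and most genes named below belong to it.

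**Figure D1:**
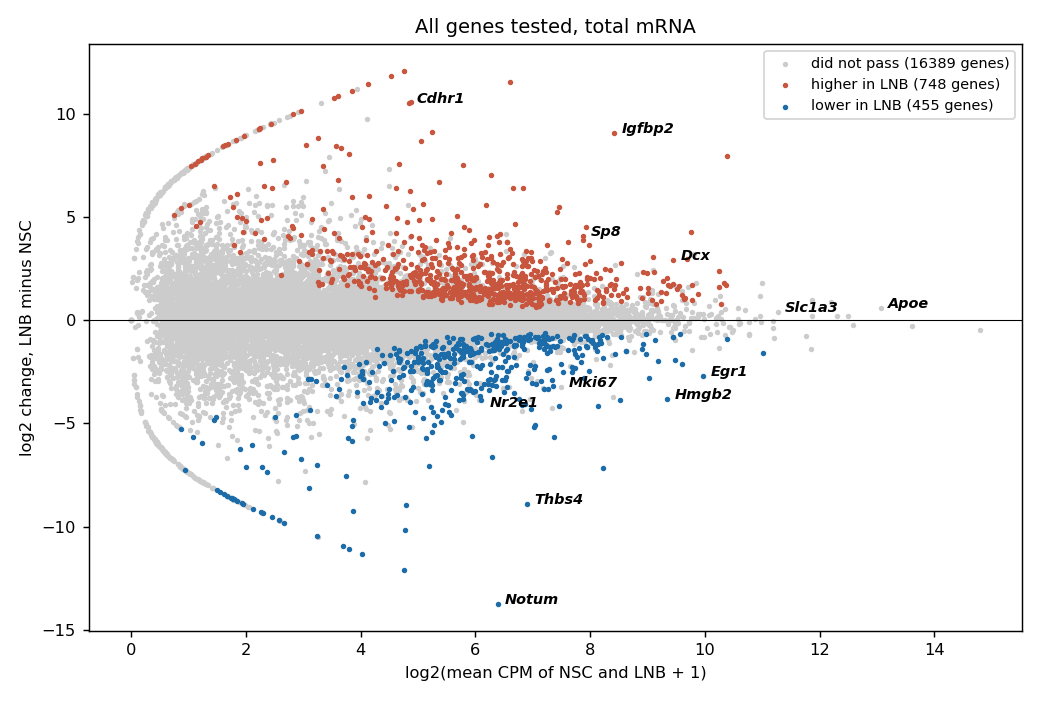
Each point is 1 of the 17592 genes tested, with log2 of the mean CPM of both stages plus 1 on the x axis and the log2 change, LNB minus NSC, on the y axis. Red points are the 748 genes higher and blue points the 455 genes lower in LNB at an adjusted p of 0.05. The curved edges are genes with 0 counts in a group, whose fitted change depends on the prior count.

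The marker of each sorted stage was high in that stage. Nr2e1, which encodes the orphan nuclear receptor TLX that maintains adult stem cells (chromosome 10, 42561963 to 42583590, GRCm38.p6), was at 222, 276 and 334 CPM in NSC replicates 1 to 3 and at 42.8, 2.55 and 37.8 CPM in LNB replicates 1 to 3. All NSC libraries were above all LNB libraries, with LNB replicate 2 far below the other LNB libraries. Its log2 change was -3.33 ± 0.76 (SE, adjusted p = 0.022), and the adjusted p rose to 0.054 without NSC replicate 2 and to 0.064 without NSC replicate 3. Dcx, the microtubule-associated doublecortin of migrating neuroblasts (chromosome X, 143855842 to 143933396), was at 194, 145 and 143 CPM in NSC and at 1191, 1583 and 917 CPM in LNB. No library overlapped between the stages, and the log2 change was 2.94 ± 0.28 (adjusted p = 0.00026). Mki67, which encodes the proliferation antigen Ki-67 (chromosome 7, 135689784 to 135716450), was at 286, 438 and 251 CPM in NSC and at 58, 26.2 and 18.2 CPM in LNB. Its levels did not overlap either, but it did not pass the test at -3.25 ± 0.95 (adjusted p = 0.063).

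**Figure D2:**
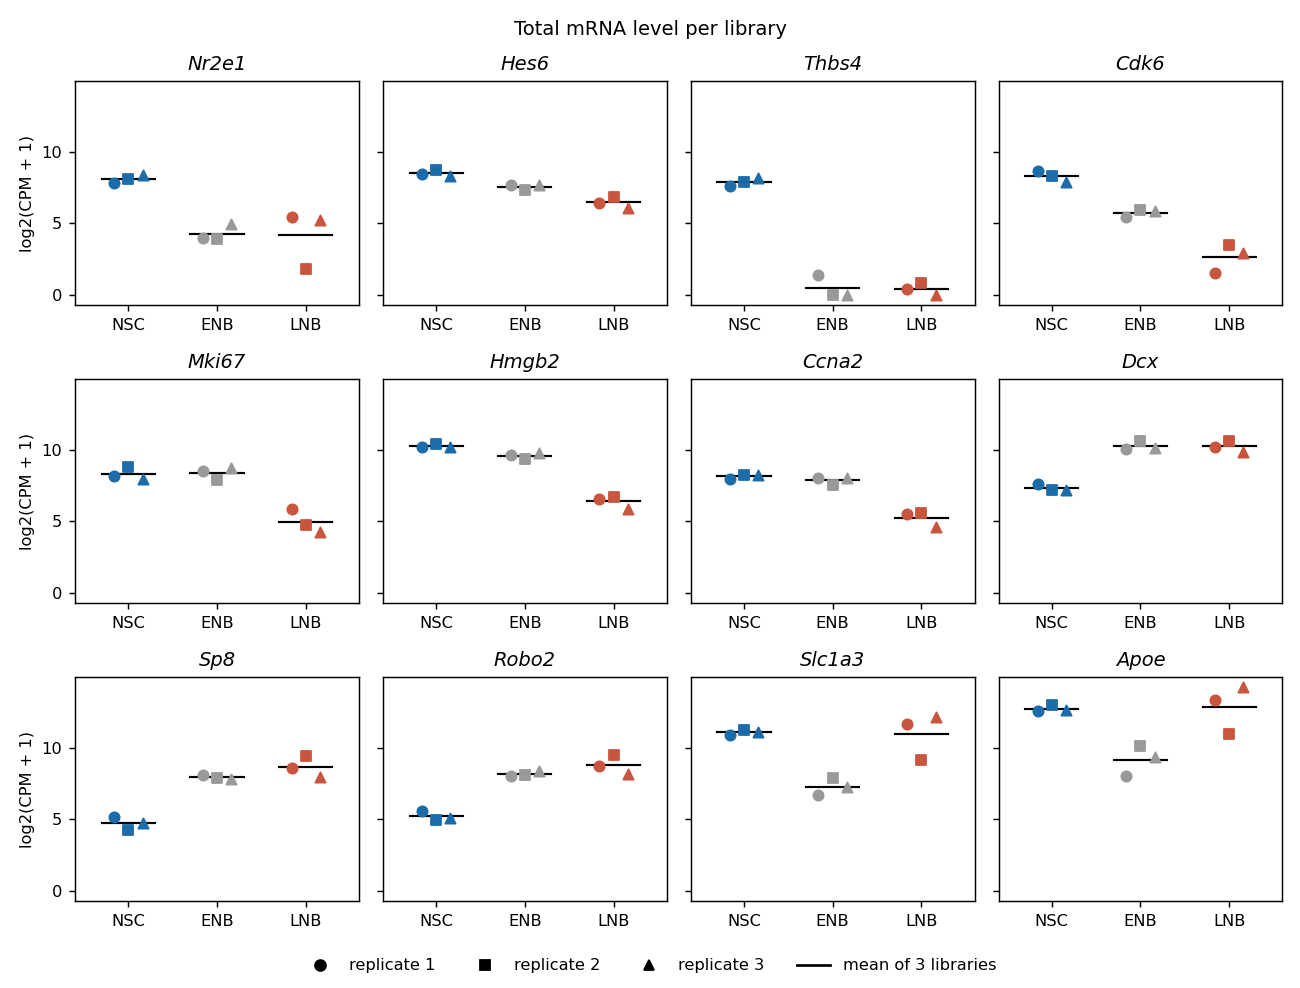
Total mRNA level of 12 genes in every NSC, ENB and LNB library, as log2(CPM + 1), with circles, squares and triangles for replicates 1, 2 and 3 and bars for the mean of 3 libraries. Hes6, Hmgb2 and Dcx show tight groups, while Slc1a3 and Apoe in LNB span from 553 to 4566 CPM and from 2020 to 18970 CPM.

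Genes of chromosome segregation were lower in LNB as a group. Of 55 mitosis genes tested, 35 (63.6%) were lower, 0 were higher, and all 55 had a negative log2 change, with a median of -3.08. Their summed level was 8531, 9916 and 9471 CPM in NSC replicates 1 to 3 and 1349, 1340 and 838 CPM in LNB replicates 1 to 3. This sum was alike in the 3 LNB libraries, unlike the sums of the glial genes described below. Without NSC replicate 2, LNB replicate 1 or NSC replicate 3 the count of lower genes was 20, 21 and 22, while the median stayed between -3.32 and -2.84 in all 6 such fits.

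Hmgb2, a chromatin protein of dividing progenitors (chromosome 8, 57511843 to 57515999), was at 1142, 1344 and 1146 CPM in NSC and at 94.2, 105 and 58.2 CPM in LNB. It was among the genes with the smallest adjusted p of the whole table, at -3.81 ± 0.29 (adjusted p = 9e-05). Ccna2, the cyclin A of S phase and G2 (chromosome 3, 36564865 to 36573038), was at 253, 304 and 293 CPM in NSC and at 44.5, 46.3 and 24 CPM in LNB, a log2 change of -2.88 ± 0.37 (adjusted p = 0.001). Cdk1, the kinase that drives entry into mitosis (chromosome 10, 69335146 to 69352912), was at 163, 181 and 215 CPM in NSC and at 20.9, 16.5 and 10.2 CPM in LNB, a log2 change of -3.54 ± 0.48 (adjusted p = 0.0014). In these genes every NSC library was several-fold above every LNB library. They belong to the stricter group, which asks that no call be lost when a library is left out. Tacc3, which organises spindle microtubules, fell by 2.88 on the log2 scale, and the spindle motor genes Kif22 and Kif11 fell by 2.70 and 2.91. Bub3, of the spindle checkpoint, had a smaller change of -1.40 ± 0.23 and was still at 53.4 to 95.3 CPM in LNB. Top2a, the topoisomerase that untangles chromosomes, was at 559, 701 and 619 CPM in NSC and at 62.6, 55.8 and 26 CPM in LNB, and like Mki67 it did not pass at -3.70 ± 1.15 (adjusted p = 0.078).

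DNA replication genes were lower to a similar degree. Of 46 tested, 35 (76.1%) were lower, 0 were higher, and the median log2 change was -2.42. The count was 23 without NSC replicate 2, the fewest of the 6 such fits. Rpa2, of the single-strand DNA-binding complex, was at 192, 162 and 125 CPM in NSC and at 18.4, 27.4 and 26 CPM in LNB, a log2 change of -2.74 ± 0.30. Pcna, the sliding clamp of DNA polymerases, was at 317, 375 and 315 CPM in NSC and kept 116, 93.1 and 80 CPM in LNB, a smaller log2 change of -1.80 ± 0.22 (adjusted p = 0.00088). The subunits of the MCM helicase likewise differed in size of change, from -1.28 for Mcm7 to -4.30 for Mcm2. Both of these lost their call without LNB replicate 1, at adjusted p of 0.13 for Mcm7 and 0.057 for Mcm2, and without that library 24 replication genes passed. Mcm7 lost its call in 4 further fits.

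The promoters of mitosis genes are known for CCAAT boxes, bound by NF-Y, and for the CHR element TTTGAA near the start site, through which the DREAM complex represses them outside the cell cycle. The 250 bases upstream of RefSeq start sites (GRCm38.p6) were searched on both strands for CCAAT, the reverse complement of which is written ATTGG. The second motif searched was TTTGAA, and on the opposite strand it is written TTCAAA. The motif CCAAT was found in 36 of 48 promoters of mitosis genes tested (75.0%), against 34.8% of the 14985 promoters of all genes tested and 33.8% of all 32851 promoters in the RefSeq table. TTTGAA was found in 39.6% of mitosis promoters, against 10.8% and 16.0%. A pair of CCAAT boxes in the same orientation with starts 31 to 34 bases apart was found in 16.7% of them, against 1.36% and 0.813%. In 41 promoters of 36 replication genes the shares were 63.4% for CCAAT, 9.76% for TTTGAA and 4.88% for the pair. In 430 promoters of 344 genes lower in LNB they were 49.3%, 15.1% and 4.65%. Neuroblast genes, which were higher in LNB, had shares of 50%, 13.6% and 0% in 44 promoters of 25 genes. All these shares count promoters, so a gene with several start sites counts more than once. In this count of promoters, a raised share of CCAAT was not particular to genes lower in LNB. These shares describe letters in a window, and a match is not a site shown to be bound. The stretches below hold the 100 bases before the start sites of 6 genes with lower levels in LNB, chosen after their values and promoters were seen, to show the paired boxes and the element near the start. Capitals mark these motifs on either strand, and each stretch reads 5′ to 3′ on the strand of the gene.
Cdk1, chr10:69352913-69353012, minus strand: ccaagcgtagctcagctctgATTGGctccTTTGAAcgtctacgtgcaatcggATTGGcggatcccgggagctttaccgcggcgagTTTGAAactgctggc
Ccnb2, chr9:70421555-70421654, minus strand: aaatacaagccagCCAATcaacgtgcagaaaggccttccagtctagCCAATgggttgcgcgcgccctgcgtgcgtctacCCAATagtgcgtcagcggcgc
Brip1, chr11:86201194-86201293, minus strand: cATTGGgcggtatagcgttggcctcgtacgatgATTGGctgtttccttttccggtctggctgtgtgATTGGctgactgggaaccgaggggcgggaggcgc
Rpa2, chr4:132768260-132768359, plus strand: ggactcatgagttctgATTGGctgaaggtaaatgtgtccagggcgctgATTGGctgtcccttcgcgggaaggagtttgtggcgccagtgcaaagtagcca
Kif22, chr7:127042421-127042520, minus strand: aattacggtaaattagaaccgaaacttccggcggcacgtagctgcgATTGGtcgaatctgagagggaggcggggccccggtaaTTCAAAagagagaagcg
Kif11, chr19:37376282-37376381, plus strand: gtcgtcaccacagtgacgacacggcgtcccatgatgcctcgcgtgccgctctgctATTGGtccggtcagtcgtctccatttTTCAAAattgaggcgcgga
In Cdk1 the element TTTGAA begins 15 bases before the start site, with an ATTGG pair spaced 32 bases further upstream. Ccnb2, the cyclin partner of Cdk1, has 3 CCAAT boxes spaced 33 bases apart, and Brip1, a DNA repair helicase, has 3 ATTGG boxes spaced 33 and 32 bases apart. Rpa2 has a pair spaced 32 bases apart. Kif22 and Kif11 each have a single ATTGG followed by TTCAAA, 17 and 19 bases before their start sites. Ccnb2 was at 70.4, 85.4 and 98.5 CPM in NSC and at 4.26, 6.41 and 3.92 CPM in LNB, a log2 change of -4.11 ± 0.82 (adjusted p = 0.012, and 0.057 without LNB replicate 1). Brip1 was at 24.9, 22 and 27.7 CPM in NSC and at 0.365, 0.896 and 0 CPM in LNB, a log2 change of -5.70 ± 0.88 (adjusted p = 0.0051).

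Of 23 cyclins, their kinases and inhibitors, 10 were lower in LNB and 0 were higher, with a median of -1.59. Cdk6, the kinase of the early G1 decision to divide (chromosome 5, 3341004 to 3531008), was at 404, 320 and 237 CPM in NSC and at 1.95, 10.3 and 6.59 CPM in LNB. This was one of the largest falls of an abundant gene, 50.3-fold (log2 change -5.65 ± 0.68, adjusted p = 0.00076). Its relative Cdk4 was at 778, 887 and 760 CPM in NSC and at 552, 636 and 446 CPM in LNB, and did not pass at -0.57 ± 0.20 (adjusted p = 0.12). Ccne1, the cyclin of S phase entry, was at 45.5, 38.8 and 33 CPM in NSC and at 2.31, 2.76 and 2.31 CPM in LNB, a log2 change of -3.98 ± 0.38 (adjusted p = 0.00026). Ccnd2, the D-type cyclin of neural progenitors, was at 3397, 3045 and 2905 CPM in NSC and remained at 905, 1443 and 760 CPM in LNB. Its change of -1.59 ± 0.31 (adjusted p = 0.011) lost the call without LNB replicate 1 (adjusted p = 0.055). The inhibitor Cdkn1b was at 34.5 to 53.3 CPM in NSC and 40.6 to 86.5 CPM in LNB and did not pass (0.67 ± 0.52, adjusted p = 0.53). Without LNB replicate 1 the count of lower genes in this list was 6.

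Some genes of stem cell activation and neural commitment were lower in LNB. Of 23 tested, 9 (39.1%) were lower, 0 were higher, and the median was -2.30. The count was 4 without LNB replicate 1 and 6 without NSC replicate 2. Hes6, a target of proneural factors, was at 340, 432 and 321 CPM in NSC and at 87.1, 113 and 68 CPM in LNB, a log2 change of -2.03 ± 0.30. Btg2, an antiproliferative gene of progenitors that divide to make neurons, was at 335, 430 and 287 CPM in NSC and at 60.6, 80.1 and 72.7 CPM in LNB, a log2 change of -2.30 ± 0.25. Gsx2, a homeobox factor of lateral ganglionic and subventricular progenitors, was at 81.2, 55 and 65.2 CPM in NSC and at 0, 3.38 and 0 CPM in LNB. Its change of -5.71 ± 1.24 (adjusted p = 0.023) lost the call in each fit without 1 NSC library, at adjusted p of 0.071, 0.067 and 0.062 without replicates 1, 2 and 3. Egfr, the EGF receptor of activated stem cells, was at 181, 310 and 158 CPM in NSC and at 29.8, 12.2 and 52.4 CPM in LNB, without overlap, and did not pass at -2.79 ± 0.82 (adjusted p = 0.065).

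In the Notch pathway, 5 of 29 genes were lower and 2 were higher, and the list median of 0.23 was near that of all genes. The ligand gene Dll3 was at 91, 80.8 and 55.1 CPM in NSC and at 0.973, 5.86 and 1.96 CPM in LNB, a log2 change of -4.64 ± 0.73 (adjusted p = 0.0033). Dll1, another ligand, fell by 2.62 on the log2 scale, with an adjusted p of 0.014 that became 0.067 without LNB replicate 1. The receptor Notch1 was at 272, 487 and 283 CPM in NSC and at 132, 99.3 and 190 CPM in LNB, and its change of -1.31 ± 0.34 (adjusted p = 0.040) kept its call only without LNB replicate 3. Hes5, the main Notch effector in stem cells, was at 979, 803 and 954 CPM in NSC and at 125, 34.4 and 229 CPM in LNB, a log2 change of -2.82 ± 0.57 (adjusted p = 0.013, and 0.057 without LNB replicate 1). Its LNB levels followed the order of the glial genes, lowest in replicate 2 and highest in replicate 3. Among higher genes, Maml3, a coactivator of Notch, was at 15.7, 40.2 and 15.5 CPM in NSC and at 96.2, 181 and 78.4 CPM in LNB, a log2 change of 2.32 ± 0.42 (adjusted p = 0.0077). The other was Dner, which encodes a neuronal transmembrane protein related to Notch ligands. Without LNB replicate 1, 2 Notch pathway genes were lower and 1 was higher. The count of higher genes was also 1 without LNB replicate 3, NSC replicate 1 or NSC replicate 2.

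Of 34 stem cell transcription factors, 5 (14.7%) were lower, 0 were higher, and the median was -0.97. The 5 were Hes5, Nr2e1, Nfia, Emx2 and Id1, and the count fell to 1 without NSC replicate 2 or 3, to 2 without LNB replicate 1 or NSC replicate 1 and to 3 without LNB replicate 2. Nfia, a glial fate factor, was at 797, 592 and 612 CPM in NSC and at 308, 367 and 238 CPM in LNB, a log2 change of -1.13 ± 0.27 (adjusted p = 0.027). Emx2, a homeobox factor of stem cells, was at 26.6, 18.5 and 16.3 CPM in NSC and at 3.4, 0.896 and 1.78 CPM in LNB, a log2 change of -3.34 ± 0.80. Nfia kept its call only without LNB replicate 2 and Emx2 only without LNB replicate 1, with adjusted p up to 0.089 in the other fits. Id1, an inhibitor of proneural factors, was at 68.7, 114 and 80.3 CPM in NSC and at 9.61, 2.14 and 20.3 CPM in LNB (-3.06 ± 0.79, adjusted p = 0.038, and 0.127 without LNB replicate 1). Its relative Id3 was at 206, 279 and 246 CPM in NSC and at 73.6, 12.8 and 222 CPM in LNB, where LNB replicate 3 reached the NSC levels, and did not pass (-1.25 ± 0.73, adjusted p = 0.37). Sox2, the pluripotency and neural stem cell factor, was nearly level at 84.5, 110 and 95.5 CPM in NSC and 91.3, 72.6 and 90.1 CPM in LNB (-0.19 ± 0.27, adjusted p = 0.76). Sox9, a factor of stem cells and astrocytes, was at 487, 575 and 466 CPM in NSC and at 235, 55.1 and 185 CPM in LNB, without overlap and without passing (-1.69 ± 0.55, adjusted p = 0.089).

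Among protein-coding genes of the stricter group, the largest falls included secreted proteins and receptors of the stem cell niche. Notum, a secreted enzyme that inactivates Wnt proteins (chromosome 11, 120653788 to 120661193), was at 174, 147 and 177 CPM in NSC and had 0 counts in all LNB libraries. Against a floor of 3 counts over the 3 LNB libraries it was at least 1570-fold lower in LNB (adjusted p = 0.0089). Veph1, a membrane-associated protein, was at 20.5, 22.9 and 28.1 CPM in NSC and had 0 counts in LNB, at least 225-fold lower (adjusted p = 0.0077). Thbs4, a thrombospondin of subventricular stem cells (chromosome 13, 92751586 to 92794818), was at 194, 235 and 280 CPM in NSC and at 0.365, 0.827 and 0 CPM in LNB, a log2 change of -8.90 ± 1.17 (adjusted p = 0.0012). Crym, the thyroid hormone-binding mu-crystallin, was at 376, 774 and 634 CPM in NSC and at 4.26, 2.48 and 5.88 CPM in LNB, 145-fold lower (adjusted p = 0.0081). Adamts18, a secreted metalloprotease, was at 52.8, 71.5 and 34 CPM in NSC and was detected in LNB replicate 2 alone, at 0.0689 CPM (adjusted p = 0.0019). Ass1, which makes argininosuccinate in arginine synthesis, was at 105, 114 and 138 CPM in NSC and at 4.74, 2.41 and 0 CPM in LNB, a log2 change of -5.59 ± 1.04. Cenpm, of the centromere, and Brip1 and Cdk6, both described above, complete the 10 largest falls of that group together with the Wnt receptor gene Fzd5.

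Wnt genes moved in both directions. Of 49 genes of the BMP, Wnt and hedgehog pathways, 3 were higher and 3 were lower, with a median of -0.04. Fzd5, which is not in that list, was at 64.3, 89.3 and 57.1 CPM in NSC and at 0.122, 0.827 and 0.534 CPM in LNB, a log2 change of -7.05 ± 1.02 (adjusted p = 0.0035). Sfrp1, a secreted Wnt antagonist, was at 197, 201 and 232 CPM in NSC and at 10.3, 12.5 and 13.9 CPM in LNB, a log2 change of -4.10 ± 0.53. Dkk3, a secreted protein of the dickkopf family, was at 572, 789 and 682 CPM in NSC and at 63.5, 27.2 and 50.6 CPM in LNB, a log2 change of -3.86 ± 0.60. The ligand gene Wnt5a was at 12.5, 9.6 and 7.63 CPM in NSC and at 38.7, 82.6 and 38.8 CPM in LNB (2.42 ± 0.36, adjusted p = 0.0023), and the ligand gene Wnt7a was at 31.1, 27.3 and 30.7 CPM in NSC and at 209, 104 and 285 CPM in LNB (2.74 ± 0.34, adjusted p = 0.00082). Wnt5a was highest in LNB replicate 2, where Wnt7a was lowest. The other 2 called genes of the list were the BMP type I receptor gene Acvr1, higher, and Id1, lower. With 1 library left out, 2 to 4 genes passed in each direction.

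Neuroblast genes were higher in LNB. Of 42 tested, 30 (71.4%) were higher, 0 were lower, all 42 had a positive log2 change, and the median was 1.67. Their summed level was 13276, 10458 and 11587 CPM in NSC and 29128, 43190 and 20788 CPM in LNB replicates 1 to 3. The LNB order, highest in replicate 2 and lowest in replicate 3, is the reverse of that of the astrocyte and radial glia genes given below, and the part of those cells in it was not tested. Of the 748 genes higher in LNB, 426 (57.0%) were lowest in LNB replicate 3 among the LNB libraries, against 37% of all genes tested. Without NSC replicate 2 the count of higher neuroblast genes was 17.

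Ncam1, the neural cell adhesion molecule that carries polysialic acid on neuroblasts (chromosome 9, 49502129 to 49799393), was at 643, 500 and 642 CPM in NSC and at 1491, 1913 and 2100 CPM in LNB, a log2 change of 1.62 ± 0.20 (adjusted p = 0.00088). The class III beta-tubulin gene Tubb3 was at 403, 419 and 419 CPM in NSC and at 1195, 1866 and 931 CPM in LNB, a log2 change of 1.68 ± 0.24 (adjusted p = 0.0019). Nrep, a neuronal regeneration-related gene, was at 171, 223 and 163 CPM in NSC and at 1061, 2462 and 857 CPM in LNB, a log2 change of 2.98 ± 0.41 (adjusted p = 0.0017). In all 3 the NSC libraries were tight and the LNB libraries were more spread without reaching them. Igfbpl1, a secreted protein of neuroblasts, was at 113, 99.2 and 91.6 CPM in NSC and at 550, 698 and 395 CPM in LNB, and Tubb2b, another neuronal beta-tubulin, rose by 1.65 ± 0.22. Cd24a, a surface glycoprotein used to sort neuroblasts, was at 332, 305 and 336 CPM in NSC and at 1060, 1285 and 708 CPM in LNB. Its change of 1.65 ± 0.33 (adjusted p = 0.012) lost the call without NSC replicate 1 (0.061) or NSC replicate 2 (0.082). Gad2, which makes GABA, rose by 1.77 ± 0.32 and lost its call without NSC replicate 2 (adjusted p = 0.066). Sox11, a SoxC factor of immature neurons, was at 1400, 1166 and 1079 CPM in NSC and at 1689, 2857 and 995 CPM in LNB, with overlap, and did not pass (0.60 ± 0.39, adjusted p = 0.42).

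Interneuron transcription factors gave 14 higher genes (35%) and 1 lower gene, Gsx2, among 40, with a median of 1.21. Sp8, a zinc finger factor of calretinin interneurons (chromosome 12, 118846288 to 118852578), was at 35.2, 18.5 and 25.6 CPM in NSC and at 384, 698 and 245 CPM in LNB, a log2 change of 4.06 ± 0.41 (adjusted p = 0.0003). It had the largest rise of the members that passed. Pbx3, a homeobox cofactor, was at 43.4, 25.9 and 30.3 CPM in NSC and at 209, 331 and 193 CPM in LNB, a log2 change of 2.88 ± 0.32 (adjusted p = 0.00059). Etv1, an ETS factor of bulb interneurons, was at 94.6, 66.4 and 117 CPM in NSC and at 438, 614 and 316 CPM in LNB, a log2 change of 2.30 ± 0.31 (adjusted p = 0.0014). Sox4, the other SoxC factor, was at 163, 165 and 154 CPM in NSC and at 683, 1293 and 431 CPM in LNB (2.32 ± 0.35, adjusted p = 0.0023), in contrast to the overlap of Sox11. Each of these was highest in LNB replicate 2 and lowest in LNB replicate 3. Pax6, a factor of dopaminergic periglomerular fate, was at 57.8, 103 and 71.9 CPM in NSC and at 193, 187 and 145 CPM in LNB, without overlap, and did not pass (1.17 ± 0.41, adjusted p = 0.11). The count of higher factors was 9 without NSC replicate 2 or NSC replicate 3.

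Receptors for guidance were among the larger rises. Of 52 migration and guidance genes, 12 (23.1%) were higher and 1, the netrin gene Ntn1, was lower, with a median of 0.76. Robo2, a Slit receptor that steers neuroblasts (chromosome 16, 73891976 to 75447443), was at 46.6, 30.8 and 33.3 CPM in NSC and at 411, 701 and 279 CPM in LNB, a log2 change of 3.65 ± 0.35 (adjusted p = 0.00026). Erbb4, a neuregulin receptor of the migratory stream, was at 25.2, 19.9 and 33.3 CPM in NSC and at 159, 257 and 101 CPM in LNB, a log2 change of 2.73 ± 0.36 (adjusted p = 0.0012). Astn1, an adhesion protein of glia-guided migration, was at 94, 154 and 68.9 CPM in NSC and was even among LNB libraries at 347, 340 and 344 CPM, a log2 change of 1.70 ± 0.26 (adjusted p = 0.0029). Prokr2, the prokineticin receptor needed for bulb neurogenesis, was at 14.4, 3.51 and 4.82 CPM in NSC and at 337, 496 and 191 CPM in LNB. Its change of 5.48 ± 1.11 (adjusted p = 0.013) lost the call without NSC replicate 2 (0.072) or NSC replicate 3 (0.063). Ntn1 was at 16.8, 40.2 and 20.6 CPM in NSC and at 6.93, 2.48 and 4.63 CPM in LNB, a change of -2.47 ± 0.57 (adjusted p = 0.025, and 0.12 without NSC replicate 2). The list had 5 to 7 higher genes without NSC replicate 2, LNB replicate 1, NSC replicate 3 or NSC replicate 1.

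Matrix and growth factor genes showed few calls. Of 47 extracellular matrix genes and receptors, 4 were higher and 1, Thbs4, was lower, with a median of 0.76. Vcan, the hyaluronan-binding proteoglycan versican, was at 47.4, 69.2 and 67.4 CPM in NSC and at 508, 470 and 358 CPM in LNB, a log2 change of 2.86 ± 0.43 (adjusted p = 0.0024). Its relative Ncan, neurocan, was at 372, 362 and 356 CPM in NSC and at 1006, 688 and 1039 CPM in LNB, a log2 change of 1.33 ± 0.23. The other higher genes were Matn4, which is described below, and Reln, the extracellular signal reelin. Reln kept its call only without LNB replicate 2 or 3. Without LNB replicate 2 the count of higher matrix genes was 9. Of 34 growth factor receptor genes and related binding proteins, 3 were higher (Erbb4, Igfbp2 and Igfbpl1) and 1, Igfbp5, was lower, and 6 were higher without LNB replicate 2. Igfbp5 was at 408, 386 and 247 CPM in NSC and at 48.3, 41 and 93.1 CPM in LNB, a log2 change of -2.52 ± 0.38, while Igfbp2 moved the other way.

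Genes of neuronal signalling rose in part. Of 56 neurotransmitter receptor and ion channel genes, 16 (28.6%) were higher and 0 were lower, with a median of 0.87. Cacna1c, an L-type calcium channel (chromosome 6, 118587240 to 119197384), was at 10.2, 8.08 and 7.4 CPM in NSC and at 167, 160 and 91.4 CPM in LNB, a log2 change of 4.02 ± 0.30 (adjusted p = 9e-05). Gria2, the AMPA receptor subunit that limits calcium entry, was at 121, 71.5 and 91.1 CPM in NSC and at 747, 414 and 769 CPM in LNB, a log2 change of 2.77 ± 0.31. Grik3, a kainate receptor subunit, was at 12.8, 9.14 and 8.86 CPM in NSC and at 59.2, 120 and 63.2 CPM in LNB, a log2 change of 2.97 ± 0.32. The groups of these 3 genes lay well apart. The count was 9 without NSC replicate 2.

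Synapse and mature neuron genes, by contrast, gave 6 higher and 0 lower genes among 47, with a median of 0.29, and 0 higher and 1 lower gene without NSC replicate 2. The counts were 2 without LNB replicate 1 or NSC replicate 1, 3 without LNB replicate 2 and 4 without NSC replicate 3. NSC replicates 1 and 3 already held such mRNA. Snap25, of the vesicle fusion machinery, was at 318, 32.5 and 318 CPM in NSC and at 283, 338 and 165 CPM in LNB (0.24 ± 0.60, adjusted p = 0.88). Rbfox3, which encodes the neuronal antigen NeuN, was at 17.8, 8.31 and 17.5 CPM in NSC and at 8.51, 23.5 and 6.77 CPM in LNB (-0.15 ± 0.44, adjusted p = 0.89). In both genes NSC replicate 2 was the lowest NSC library and LNB replicate 2 the highest LNB library. Cpne6, a calcium-binding protein of mature neurons, was at 11.3, 3.81 and 11.6 CPM in NSC and at 14.5, 13 and 6.59 CPM in LNB, with the same order of replicate 2 in NSC (0.37 ± 0.44, adjusted p = 0.71). Calb2, the calretinin gene of bulb interneurons, was at 0, 1.22 and 0.449 CPM in NSC and at 50.6, 50.7 and 37.8 CPM in LNB, a log2 change of 6.40 ± 0.91 (adjusted p = 0.0018). Of the 22 bulb interneuron subtype genes tested it passed also in all 6 fits with 1 library left out, and 4 others passed with all libraries (Reln, Kctd12, Synpr and Gpsm1). The subtype count was 1 without NSC replicate 2, 2 without LNB replicate 1 and 3 in each of the other 4 fits.

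Of 41 RNA-binding and splicing regulators, 6 were higher and 2 were lower, with a median of 0.41. Ptbp1, a splicing repressor that blocks neuronal exons, was at 316, 330 and 311 CPM in NSC and at 129, 122 and 124 CPM in LNB, with very little spread (-1.35 ± 0.20, adjusted p = 0.0024). Msi2, the Musashi translational regulator of stem cells, was at 346, 385 and 420 CPM in NSC and at 174, 126 and 162 CPM in LNB (-1.32 ± 0.24, adjusted p = 0.0075). Among those that rose, Srrm4, which promotes neuronal microexons, was at 34.4, 30.5 and 33.1 CPM in NSC and at 171, 173 and 112 CPM in LNB (2.22 ± 0.36, adjusted p = 0.0037). Celf4 and Rbfox2, both regulators of neuronal splicing, rose by 2.24 ± 0.26 and 2.01 ± 0.31. The other 3 were Khdrbs3, Elavl3 and Celf5, and without NSC replicate 2 or NSC replicate 1 the count of higher genes was 3 and 4.

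Chromatin regulators gave 5 higher and 6 lower genes among 45, with a median of 0.23. Actl6b, the neuron-specific BAF complex subunit, was at 29.9, 14 and 26.7 CPM in NSC and at 129, 148 and 73.9 CPM in LNB, a log2 change of 2.32 ± 0.33 (adjusted p = 0.0018). Its progenitor counterpart Actl6a was at 170, 166 and 164 CPM in NSC and at 86.9, 101 and 71.8 CPM in LNB, without overlap, and did not pass (-0.94 ± 0.29, adjusted p = 0.072). Chd3, a nucleosome remodeller of the NuRD complex, was at 113, 123 and 81.9 CPM in NSC and at 290, 457 and 237 CPM in LNB, a log2 change of 1.63 ± 0.25. The histone variant genes H2afz and H2afx were lower, H2afz at 891, 977 and 917 CPM in NSC and 248, 293 and 166 CPM in LNB (-1.98 ± 0.22) and H2afx at -2.43 ± 0.28. The remaining calls were Smarcd3, Arid1b and Dpf3, higher, and Hmgb2, Hmga1, Dnmt1 and Hdac1, lower. Without NSC replicate 1 or NSC replicate 3 the count of higher genes was 3, in both cases with 4 lower genes, and without LNB replicate 3 it was 8 with 4 lower genes.

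**Figure D3:**
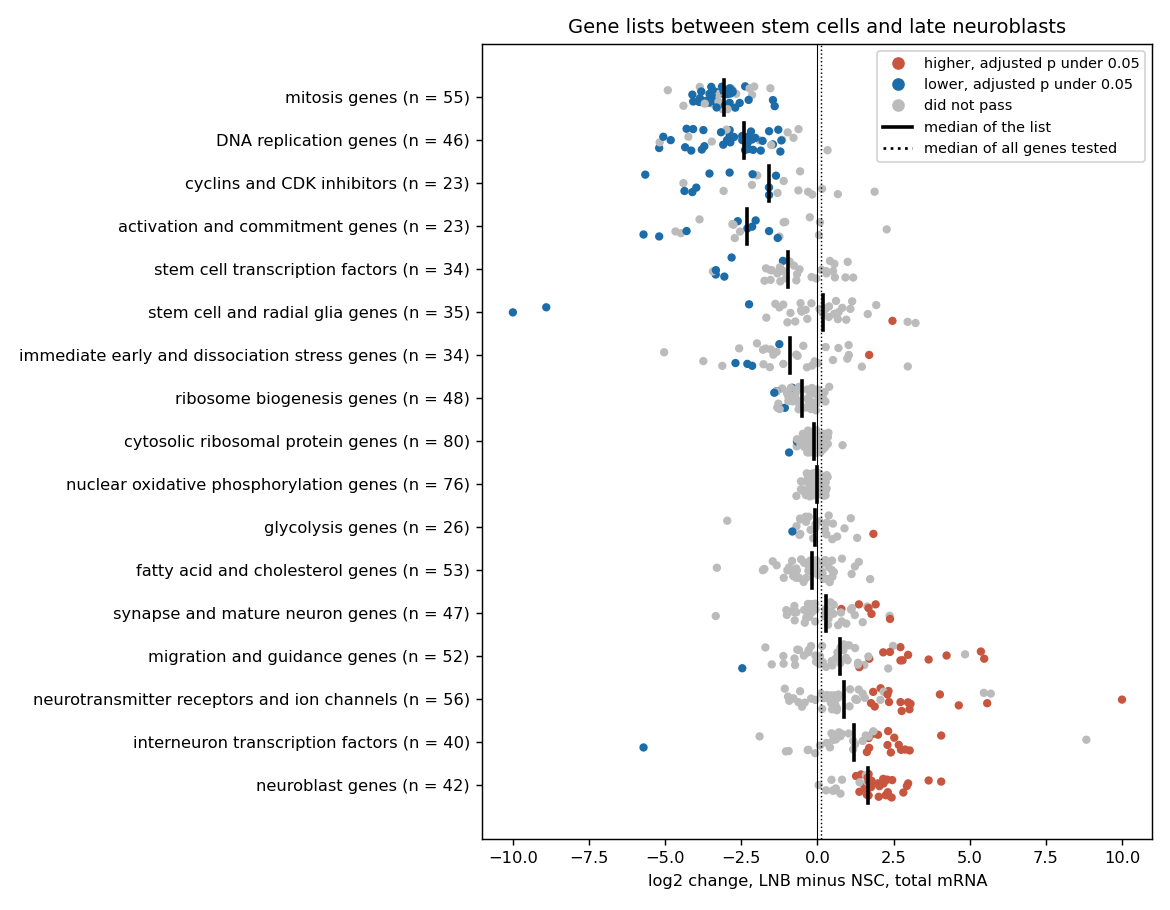
Log2 change, LNB minus NSC, of every tested member of 17 gene lists, 1 point a gene, with black bars for list medians and a dotted line for the median of all genes tested (0.10). Red and blue mark members that passed as higher or lower, and values beyond 10 in either direction are drawn at the edge. The medians run from -3.08 for mitosis genes to 1.67 for neuroblast genes.

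Few genes of basic metabolism passed, and those of the translation apparatus and proteasome that passed by edgeR were lower in LNB. Of 76 nuclear oxidative phosphorylation genes and 53 fatty acid and cholesterol genes, 0 passed in either direction by edgeR, with medians of -0.03 and -0.16. At an unadjusted p under 0.05 the counts were 5 and 13, and DESeq2 called 2 and 5. Of 26 glycolysis genes, Pfkp, a phosphofructokinase, was higher and Pkm, pyruvate kinase, was lower, and neither call held without LNB replicate 1 or NSC replicate 1 or 2. Aldoa, the aldolase of most tissues, was at 734, 583 and 805 CPM in NSC and at 513, 265 and 659 CPM in LNB (-0.56 ± 0.29, adjusted p = 0.30). Of 80 cytosolic ribosomal protein genes, 0 were higher and 2, Rps27l and Rpl4, were lower, with a median of -0.12. Rpl22, the protein that carries the HA tag, was at 63.2, 77.2 and 77.5 CPM in NSC and at 63.5, 94.5 and 85.7 CPM in LNB (0.16 ± 0.28, adjusted p = 0.81). Of 51 translation factors 6 were lower (11.8%), of 48 ribosome biogenesis genes 4 (8.33%) and of 31 proteasome genes 2 (6.45%), each with 0 higher. The share of lower genes among all genes tested was 2.59%. A negative log2 change was found in 43 of the biogenesis genes, with a list median of -0.51. It was also found in 30 of the proteasome genes, with a list median of -0.26. DESeq2 called 13 biogenesis, 6 proteasome and 9 translation factor genes lower, and 2 translation factor genes higher. Nhp2, of the box H/ACA particles that modify ribosomal RNA, was at 95.5, 85 and 74.4 CPM in NSC and at 27.4, 33.8 and 39.4 CPM in LNB (-1.34 ± 0.25, adjusted p = 0.0081). Psmb2, a proteasome subunit, was at 359, 327 and 354 CPM in NSC and at 157, 167 and 186 CPM in LNB (-1.03 ± 0.17, adjusted p = 0.0050). Without LNB replicate 1, 0 ribosomal protein genes and 0 translation factors passed, and the same held without NSC replicate 2 or 3. Without NSC replicate 1 these counts were 0 and 2, and without LNB replicate 3 they were 1 and 2. Biogenesis gave 7 lower genes without LNB replicate 2, 2 without LNB replicate 1 or NSC replicate 1 and 1 without NSC replicate 2. The proteasome count was 1 without LNB replicate 1 or NSC replicate 3.

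Some immediate early genes, which tissue dissociation can induce, were lower in LNB. Of 34 genes of the immediate early and cell stress responses, 4 were lower (Btg2, Egr1, Fos and Ier2) and 1, Btg1, was higher, with a median of -0.91. Egr1 was at 2025, 1797 and 1375 CPM in NSC and at 290, 364 and 150 CPM in LNB, a log2 change of -2.69 ± 0.31 (adjusted p = 0.00063). The part of dissociation in this difference was not tested. Without LNB replicate 1 or NSC replicate 2 the count of lower genes was 2, and Btg1 kept its call only without LNB replicate 3. Of 23 imprinted genes, 4 were higher (Kcnq1ot1, Rian, Nnat and Meg3) and 2 were lower (Plagl1 and Zdbf2), with 1 in each direction without NSC replicate 1 or NSC replicate 2. The count of lower genes was also 1 without LNB replicate 1, LNB replicate 3 or NSC replicate 3, and that of higher genes was 2 without LNB replicate 2. Plagl1, a zinc finger factor of imprinted growth genes, was at 87.8, 56 and 69.6 CPM in NSC and at 3.89, 4.62 and 1.07 CPM in LNB, a log2 change of -4.44 ± 0.58 (adjusted p = 0.0012). The noncoding Kcnq1ot1 was at 52.6, 62.7 and 34.2 CPM in NSC and at 263, 176 and 195 CPM in LNB, a log2 change of 2.08 ± 0.30. It is antisense to Kcnq1 and its library type does not mark the strand, so reads of both cannot be told apart. Of 32 antigen presentation and interferon genes 0 passed by edgeR, with a median of 0.50, 6 genes at an unadjusted p under 0.05 and 2 called by DESeq2. Without LNB replicate 2, 2 of them were higher, and without LNB replicate 3, 1 was lower.

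Genes of glia and stem cells in common did not separate the stages, and the LNB libraries lay on both sides of the NSC libraries. Of 35 stem cell and radial glia genes, 3 were lower (Thbs4, Veph1 and Nes), 1 was higher (Slc4a4), and the median was 0.18. Their summed level was 27288, 33808 and 30155 CPM in NSC and 34136, 6467 and 55470 CPM in LNB replicates 1 to 3. Within the libraries of index GTAAGGAG, which leave out replicate 2 of both stages, the median log2 change was 0.56, and between LNB and NSC replicate 2 it was -2.42. The direction of the list therefore depended on the libraries compared. Without LNB replicate 2, 4 genes were higher, and without LNB replicate 3, 0 were higher and 4 were lower.

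Slc1a3, the glutamate transporter GLAST of radial glia and astrocytes, was at 1852, 2434 and 2137 CPM in NSC and at 3244, 553 and 4566 CPM in LNB (0.38 ± 0.64, adjusted p = 0.81). Apoe, the lipid carrier of astrocytes, was at 6092, 7830 and 6414 CPM in NSC and at 10044, 2020 and 18970 CPM in LNB (0.61 ± 0.72, adjusted p = 0.70). Aldoc, the brain aldolase of astrocytes, was at 1590, 2000 and 1866 CPM in NSC and at 2310, 272 and 3146 CPM in LNB (0.07 ± 0.83, adjusted p = 0.98). In each of them LNB replicates 1 and 3 were above every NSC library and LNB replicate 2 was below every NSC library. Gfap, the glial intermediate filament, was at 67.9, 111 and 152 CPM in NSC and at 173, 57 and 163 CPM in LNB with the same order (0.25 ± 0.87, adjusted p = 0.91). Fabp7, a fatty acid-binding protein of radial glia and bulb ensheathing cells, was at 310, 387 and 330 CPM in NSC and at 994, 84.7 and 2151 CPM in LNB (1.65 ± 0.76, adjusted p = 0.23, and 0.014 without LNB replicate 2). Chrdl1, a BMP antagonist secreted by astrocytes, was at 13.9, 22.9 and 11.3 CPM in NSC and at 204, 21.2 and 274 CPM in LNB (3.37 ± 0.89, adjusted p = 0.052, and 0.012 without LNB replicate 2). Nes, the intermediate filament of neural stem cells, differed from these in being even within each stage, at 58.2, 60.9 and 60.9 CPM in NSC and 13.6, 11.4 and 13 CPM in LNB. It passed narrowly at -2.24 ± 0.62 (adjusted p = 0.0497) and did not pass in any fit with 1 library left out, where adjusted p ran up to 0.136 without LNB replicate 1.

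**Figure D4:**
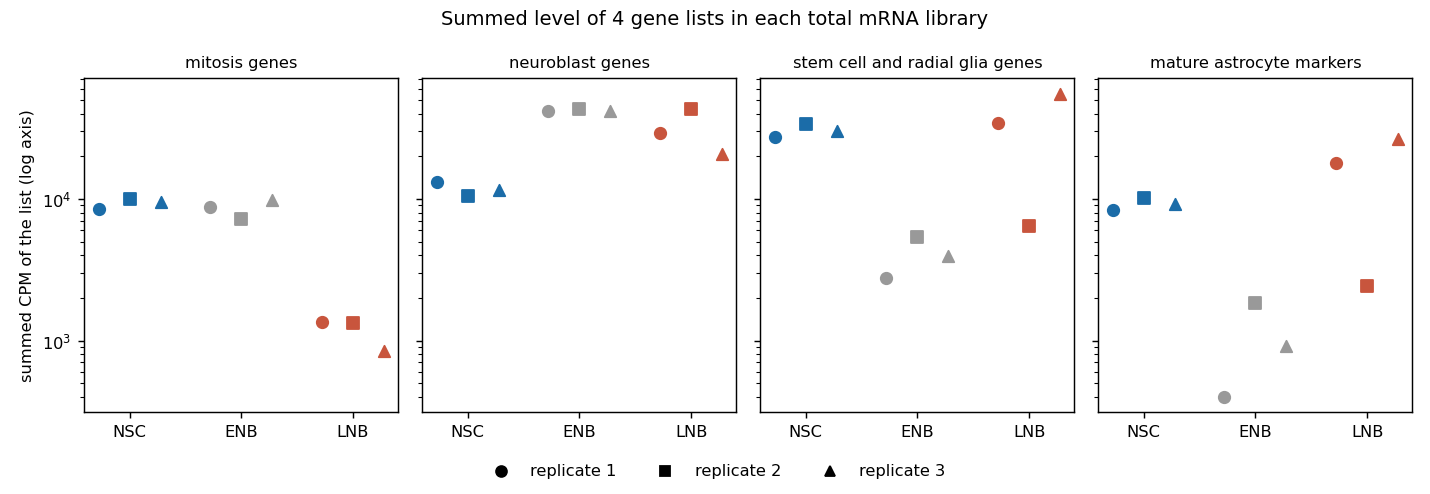
Summed CPM of 4 gene lists in every NSC, ENB and LNB library, on a log axis, with circles, squares and triangles for replicates 1, 2 and 3. Mitosis genes are at 838 to 1349 CPM in LNB against 8531 to 9916 CPM in NSC, while mature astrocyte markers in LNB span 2424 to 26678 CPM on both sides of the NSC range of 8323 to 10204 CPM.

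Markers of other cells that a sort from the bulb could hold also varied between the LNB libraries. Some varied between the NSC libraries too. In NSC replicates 1 to 3, oligodendrocyte markers summed to 301, 1147 and 3169 CPM and glutamatergic markers to 85.4, 6.48 and 4.37 CPM. The summed level was lowest in LNB replicate 2 and highest in LNB replicate 3 for 8 of 12 marker lists, and not for blood, striatal, ependymal and glutamatergic markers. Of 18 mature astrocyte markers 2 were higher in LNB (S100b and Slc6a11), 0 were lower, and none was at 0 in all 6 libraries. Their summed level was 8323, 10204 and 9235 CPM in NSC and 18086, 2424 and 26678 CPM in LNB replicates 1 to 3. Of 12 ensheathing cell and sensory axon markers 3 were higher, with sums of 576 to 2459 CPM in NSC and 690 to 7887 CPM in LNB. Of 10 oligodendrocyte precursor markers 3 were higher, with sums of 31.2 to 192 CPM in NSC and 250 to 1583 CPM in LNB, and of 15 oligodendrocyte markers 0 passed by edgeR (2 at an unadjusted p under 0.05, 2 by DESeq2), with sums of 301 to 3169 CPM and 1502 to 3486 CPM. Of 7 endothelial markers tested 2 were higher (Abcb1a and Cldn5), with sums of 0.303 to 2.21 CPM in NSC and 4.55 to 456 CPM in LNB, the highest in LNB replicate 3. Of 10 glutamatergic neuron markers 2 were higher (Cdhr1 and Reln), with sums of 4.37 to 85.4 CPM in NSC and 85.2 to 265 CPM in LNB. Microglia markers were at 53.3 to 71.2 CPM in NSC and 42.9 to 202 CPM in LNB in sum, and mural markers at 75.7 to 106 and 8.13 to 130 CPM. Of these 0 of 10 and 0 of 6 passed by edgeR, 4 and 2 at an unadjusted p under 0.05, and 1 and 0 by DESeq2. Kcnj8, Dcn and Lum, which mark mural cells and fibroblasts, had 0 counts in all 6 libraries. Of 4 choroid plexus markers tested 2, Enpp2 and Aqp1, were higher, although the defining Ttr was at most 1.09 CPM in any library. Of 9 ependymal markers 1, Fam183b, was lower, with sums of 83.8 to 122 CPM and 33.3 to 49.3 CPM, and of 12 striatal neuron markers 1, Pde10a, was higher and 1, Rgs9, was lower, with sums of 121 to 161 CPM and 158 to 241 CPM. Of 11 blood markers 1 was tested and did not pass, Ptprc, Cd3e, Ly6g and S100a9 had 0 counts in all 6 libraries, and the sum was at most 3.28 CPM in NSC and 74.9 CPM in LNB. These counts rest on single libraries. Without NSC replicate 1, 0 oligodendrocyte precursor, 0 endothelial and 0 choroid plexus markers passed, and without LNB replicate 2 the counts were 5, 3 and 2. Without NSC replicate 2 the counts were 1, 0 and 0, without LNB replicate 3 also 1, 0 and 0, without LNB replicate 1 they were 1, 1 and 0, and without NSC replicate 3 they were 6, 0 and 1. Ensheathing markers gave 1 higher gene without NSC replicate 2, astrocyte markers gave 3 without LNB replicate 2 and 1 in each of the other 5 fits, and glutamatergic markers gave 1 without LNB replicate 1 or NSC replicate 2 or 3. The part of these cells in the changes reported here was not tested.

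The 10 largest rises among protein-coding genes of the stricter group were mostly of genes that followed the glial order within LNB. They were Ano1, Vtn, Gdpd4, S100a5, Cdhr1, Sphk1, Igfbp2, Fbn2, Matn4 and Calb2. Of these, 9 were lowest in LNB replicate 2, against 25.7% of the 748 higher genes and 32.9% of all genes tested. In 6 of them replicate 2 was more than 3-fold below both other LNB libraries. This held for 55 of the 748 higher genes and 1619 of the 17592 genes tested. Igfbp2, an insulin-like growth factor-binding protein (chromosome 1, 72824480 to 72852474), was at 0.424, 2.21 and 1.23 CPM in NSC and at 660, 72.5 and 1317 CPM in LNB, a log2 change of 9.06 ± 1.19 (adjusted p = 0.0012). Vtn, the plasma and vascular matrix protein vitronectin, was at 0, 0.0762 and 0.112 CPM in NSC and at 68.9, 14.8 and 490 CPM in LNB (adjusted p = 0.0021), and LNB replicate 3 was also the library with the highest endothelial sum. Ano1, a calcium-activated chloride channel, had 0 counts in NSC and was at 37.1, 4.07 and 91 CPM in LNB, at least 566-fold higher against a floor of 3 counts over the 3 NSC libraries. Gdpd4, a glycerophosphodiesterase, had 0 counts in NSC and was at 32.3, 3.03 and 63.9 CPM in LNB, at least 425-fold higher. Sphk1, the sphingosine kinase, was at 0.303, 0 and 0 CPM in NSC and at 77.5, 13.7 and 131 CPM in LNB. Matn4, a matrilin of brain matrix, was at 0.484, 0.381 and 1.57 CPM in NSC and at 41.8, 5.17 and 193 CPM in LNB, a log2 change of 6.69 ± 1.17 (adjusted p = 0.0061). In all of these replicate 2 was low. It lay above every NSC library by the rule that chose these genes, which asks for no overlap between the groups.

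The other rises of that group were in genes of sensory neurons, mitral cells and matrix. S100a5, a calcium-binding protein of olfactory sensory neurons, had 0 counts in NSC and was at 19.1, 14.5 and 33.3 CPM in LNB, at least 286-fold higher (adjusted p = 0.0017). Omp, which defines those neurons, was at 0 to 1.39 CPM in NSC and 16.7 to 30.2 CPM in LNB. Cdhr1, a protocadherin of mitral cells, was at 0, 0 and 0.112 CPM in NSC and at 107, 28.6 and 31 CPM in LNB (adjusted p = 0.00036). Fbn2, the microfibril protein fibrillin 2, was at 0, 0 and 0.673 CPM in NSC and at 27.2, 15.5 and 23.5 CPM in LNB, a log2 change of 6.77 ± 1.23. S100b, an astrocyte calcium-binding protein outside the 10 largest rises, was at 10, 19.6 and 27 CPM in NSC and at 220, 46 and 271 CPM in LNB, a log2 change of 3.25 ± 0.59 (adjusted p = 0.0074).

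The most abundant protein-coding genes of the stricter group included cytoskeletal, chromatin and folding genes. By mean CPM over both stages, which is not corrected for gene length, the 5 most abundant higher genes of that group were Dcx, Ncam1, Nrep, Tubb2b and Tubb3. The 5 most abundant lower genes of that group were Egr1, Ppia, Hmgb2, Tuba1b and Hmgb1. Ccnd2, described above, was lower and more abundant than these, but it lost its call without LNB replicate 1 and is not in that group. Ppia, the cyclophilin A gene, was at 1635, 1818 and 1794 CPM in NSC and at 993, 855 and 919 CPM in LNB, a log2 change of -0.92 ± 0.17 (adjusted p = 0.0073). Tuba1b, an alpha-tubulin, was at 964, 1143 and 1259 CPM in NSC and at 288, 345 and 264 CPM in LNB (-1.91 ± 0.18, adjusted p = 0.00026). Hmgb1, a DNA-bending chromatin protein, was at 732, 806 and 733 CPM in NSC and at 254, 275 and 199 CPM in LNB (-1.64 ± 0.22, adjusted p = 0.0014). These 3 genes have near-identical copies elsewhere in the genome, so the split of reads among copies is uncertain.

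Early neuroblasts lie between the 2 stages in this lineage, and their libraries give levels for the genes that changed. The ENB mean lay between the NSC and LNB means for 444 of the 748 higher and 342 of the 455 lower genes. It lay at or beyond the LNB mean for 256 and 67, and at or beyond the NSC mean for 48 and 46. These positions were not counted over all genes tested, and a wide gap between NSC and LNB leaves room for a mean between them. Dcx was at 1061, 1574 and 1129 CPM in ENB, already at the LNB level. Mki67 was at 360, 240 and 418 CPM in ENB, at the NSC level, and the mitosis genes summed to 7274 to 9870 CPM there. Thbs4 was at 1.73, 0 and 0 CPM in ENB, far below NSC. Slc1a3 was at 102, 235 and 154 CPM in ENB, below every NSC and every LNB library. These ENB values are levels given beside the comparison and were not tested here.

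Ribosome-bound mRNA of the same stages, recovered through HA-tagged Rpl22 from tissue that was not sorted, gave a second readout in 2 NSC and 3 LNB libraries. There 3790 of 19066 genes (19.9%) passed, 1989 higher (10.4%) and 1801 lower (9.45%) in LNB. Of the 747 genes higher in total mRNA that were tested in it, 339 (45.4%) were higher and 13 were lower in ribosome-bound mRNA. Of the 448 lower genes tested, 234 (52.2%) were lower and 8 were higher. The difference between bulb and subventricular tissue in immunoprecipitates without the HA tag (11.8% of genes passed, 5.65% higher and 6.12% lower in bulb) went the same way for 166 of the 339 and 51 of the 234, so the tissue background moves with these calls, and its part was not tested. Dcx changed by 3.07 ± 0.39 in ribosome-bound mRNA, near its value in total mRNA, and its control difference was 2.72 (adjusted p = 2.8e-05). Mki67 and Egfr, which did not pass in total mRNA, passed there at -4.21 ± 0.99 (adjusted p = 0.0064) and -3.72 ± 0.28 (adjusted p = 3.3e-07). The control difference was -3.19 for Mki67 (adjusted p = 0.029) and -0.39 for Egfr (adjusted p = 0.36).

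Glial genes had a direction in ribosome-bound mRNA that they lacked in total mRNA. Of 35 stem cell and radial glia genes 25 were lower and 0 higher there, with a median of -2.02, and of 18 mature astrocyte markers 13 were lower and 0 higher. Slc1a3 changed by -2.09 ± 0.28, Apoe by -2.15 ± 0.37 and Aldoc by -2.87 ± 0.42. The control differences of these genes were 0.86, 1.31 and 0.05. Their differences between the assays, tested as an interaction over 21 libraries, did not pass (adjusted p = 0.14, 0.14 and 0.18). For S100b the interaction did pass: it was higher in LNB total mRNA and lower in ribosome-bound mRNA (-1.27 ± 0.31), a difference of -4.45 ± 0.69 (adjusted p = 0.0035). Egr1, lower in LNB total mRNA, was higher in ribosome-bound mRNA at 2.21 ± 0.57, a difference of 4.95 ± 0.68 (adjusted p = 0.0014). The 8 genes called in opposite directions that were lower in total mRNA were Arc, Cdkn1a, Egr1, Fos, Gpc3, Ier2, Mdga1 and Selenom, among which Arc, Egr1, Fos and Ier2 are immediate early genes. The interaction passed for 319 of 19913 genes (1.6%), with a positive difference (ribosome-bound minus total) for 0.743% and a negative one for 0.859%.

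**Figure D5:**
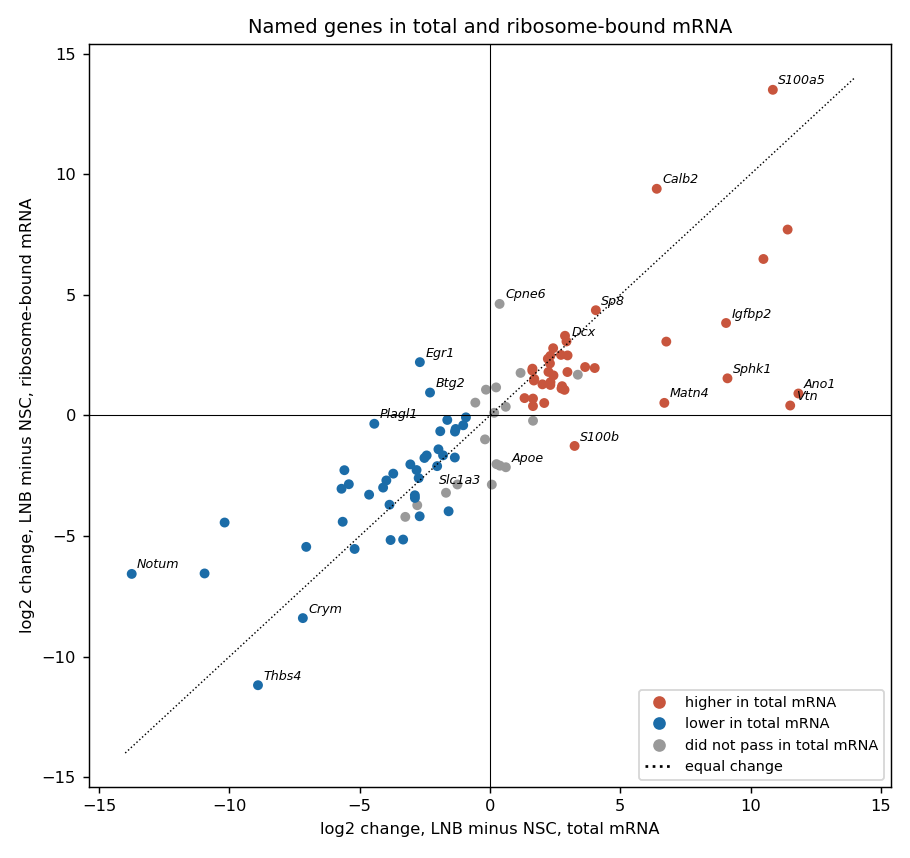
Log2 change, LNB minus NSC, of the named genes in total mRNA (x axis) and in ribosome-bound mRNA (y axis), 1 point a gene, with a dotted line for equal change and colours for the call in total mRNA. Dcx and Sp8 lie near the line, Ano1, Vtn and Sphk1 lie much nearer to 0 on the y axis than on the x axis, and Egr1 and S100b lie on opposite sides of 0 in the 2 assays.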

How the data were processed

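The members, gene lists and tests were chosen with earlier results of these data known. The authors deposited a table of raw counts, whole numbers for each Ensembl gene and library. Which tool counted them is not given in the sources used here. The authors also deposited expected counts, which are estimated counts and were rounded for an alternative, and TPM, which the authors scaled to the same total in each library and which gave no result here. Per the submitters' processing notes, RSEM 1.2.21, Bowtie2 2.2.6 and GRCm38 were used. Symbols came from a table of gene names for 44548 of 45195 genes, and coordinates and promoters from RefSeq GRCm38.p6.

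Counts were analysed in R 4.3.3 with edgeR 4.0.16 (TMM, filterByExpr, quasi-likelihood F test, Benjamini-Hochberg adjustment over all genes tested, threshold 0.05). The 12 total mRNA libraries formed 1 fit with a shared estimate of the spread, the 15 immunoprecipitation libraries another. The interaction over 21 libraries was added after seeing the data. Changes are log2 values whose SE was derived from the F statistic. Levels are CPM with TMM. A gene with 0 counts in a group has a fold bound against 3 counts over that group. Each library came from 1 to 2 mice, and p-values reflect how much such libraries vary. The fit was tested on simulated data.

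Named genes were Nr2e1, Dcx and Mki67. To these came up to 3 genes per list and direction, the 10 largest changes and the 5 most abundant changed genes in each direction, all among genes that passed in the full fit and in each of 6 fits without 1 library, had no overlap between groups and reached 10 CPM. The largest and the most abundant were taken only from annotated protein-coding symbols other than Gm numbers and Rik clones. A further set of stage genes was named whether or not they changed. Other list members were named after their values were seen. Alternatives were DESeq2 1.42.0, RLE and upper quartile scaling, no filter and a filter of 10 CPM in 3 libraries, expected counts, the 6 libraries alone, a replicate block, the second index as a term, removal of genes that overlap ribosomal RNA, and leaving out each library. Deviations of same-numbered NSC and LNB libraries from their group means correlated at 0.0151, -0.00337 and 0.0513, so the numbers were not used as pairs. Some single-gene results are not reported here.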

Additional observations from a re-analysis of the deposited data

Results flagged for a closer look

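In the interaction test of edgeR, the change between NSC and LNB differed between ribosome-bound and total mRNA for 15 of the 97 named genes. The threshold was an adjusted p of 0.05. Over all genes tested the interaction passed for 319 of 19913 (1.6%). Differences are log2, ribosome-bound minus total. Most named genes were chosen by their change in total mRNA. That choice favours positive differences for genes lower there and negative ones for genes higher there. Of the genes lower in LNB total mRNA, these did not pass in ribosome-bound mRNA: Btg2 at 3.31 (adjusted p = 0.0084), Plagl1 at 4.15 (0.0079), Hmgb1 at 1.51 (0.018), Tuba1b at 1.31 (0.018) and Ppia at 0.903 (0.047). Egr1, with opposite calls in the 2 assays, differed by 4.95 (0.0014). Cpne6, which did not pass in total mRNA, rose in ribosome-bound mRNA and differed by 4.30 (0.0017). The difference between bulb and subventricular tissue without the HA tag was 2.75 for Cpne6 (adjusted p = 3.7e-06) and 1.72 for Btg2 (0.041). Ccnd2 fell further in ribosome-bound mRNA, a difference of -2.33 (0.016), and its tissue difference without the tag was -1.28 (0.013).

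Among genes higher in LNB total mRNA, Cacna1c differed by -2.0 (adjusted p = 0.034), Igfbp2 by -5.17 (0.032), Matn4 by -6.13 (0.033), Sphk1 by -7.54 (0.033) and S100b by -4.45 (0.0035). Ano1 differed by -10.73 (0.032) and Vtn by -11.04 (0.0027), values that depend on the prior count because their NSC libraries hold almost no reads. Matn4, Sphk1, Ano1 and Vtn were lowest in LNB replicate 2 in total mRNA and did not pass between the stages in ribosome-bound mRNA (adjusted p = 0.62, 0.26, 0.62 and 0.46). The tissue difference without the tag passed for Igfbp2 at 3.52, Sphk1 at 4.02 and Matn4 at 1.89 (adjusted p = 9.3e-06, 0.0055 and 0.046), and its part was not tested. The sorting of cells and the immunoprecipitation differ between the assays as well as the mRNA, and their part was not tested.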

How the results depend on the processing

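The 1203 calls between NSC and LNB in total mRNA (748 higher, 455 lower) became 2364 with DESeq2 (1340 and 1024). With a replicate block over the 6 libraries they became 453 (232 and 221), and the block ended the call of 24 of the 97 named genes, although the numbers do not pair the samples. Over the 4 libraries of index GTAAGGAG, an alternative chosen after seeing the data, 424 genes were higher. Leaving out 1 library gave 401 to 1023 calls, 235 to 679 higher and 166 to 418 lower. Scaling, filters, expected counts, the index term and removal of ribosomal RNA genes kept the counts within 1.5 times. In ribosome-bound mRNA, 3790 calls (1989 and 1801) became 5947 with only the 5 libraries (2985 lower), and leaving out 1 library gave 2539 to 2690 calls, 1252 to 1518 higher and 1172 to 1287 lower. No named gene changed direction with a call under any of these settings. Depth limits genes under 1 CPM, where a library holds only a few counts.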

Other observations

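Of the genes that met the strict conditions of the report, 129 higher and 60 lower genes belong to none of the 40 gene lists. These counts cover protein-coding symbols other than Gm numbers and Rik clones, and they leave out genes already named by the rules above. The genes below are among the 15 of each direction with the smallest adjusted p, chosen after their values were seen. Among those higher in LNB were genes of neuronal adhesion and wiring. Tenm4, a teneurin, was at 15.6, 17.1 and 17 CPM in NSC and at 135, 213 and 111 CPM in LNB, a log2 change of 3.21 ± 0.26 (adjusted p = 0.00011). Sdk2, a synaptic adhesion protein of the immunoglobulin family, was at 28.1, 22.9 and 16.3 CPM in NSC and at 277, 350 and 211 CPM in LNB. Adarb2, a brain protein of the RNA-editing deaminase family, was at 11.6, 7.39 and 8.07 CPM in NSC and at 151, 185 and 128 CPM in LNB, a log2 change of 4.09 ± 0.28 (adjusted p = 7.8e-05). Dusp4, a phosphatase of MAP kinases, was at 17.4, 10.4 and 9.64 CPM in NSC and at 205, 201 and 110 CPM in LNB. By the strict conditions under which they were chosen, none of these 4 genes had overlapping groups.

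Among those lower in LNB were histone chaperones and proteins of replicating chromatin. Anp32b, a histone chaperone, was at 323, 327 and 285 CPM in NSC and at 47.9, 63.8 and 53.1 CPM in LNB, a log2 change of -2.50 ± 0.19 (adjusted p = 9e-05). Dek, a chromatin architecture protein, was at 501, 395 and 374 CPM in NSC and at 68.9, 97.5 and 63.6 CPM in LNB. Pclaf, a partner of PCNA, was at 386, 295 and 307 CPM in NSC and at 18.1, 25.1 and 12.5 CPM in LNB. Nasp, a chaperone of linker and core histones, kept a larger share of its NSC level, at 309, 290 and 258 CPM against 103, 117 and 90.3 CPM. The same set held 2 genes of neuronal signalling. Nptx2, a secreted synaptic pentraxin, was at 70.6, 84.1 and 84.6 CPM in NSC and at 3.4, 2.21 and 2.31 CPM in LNB. Epha3, an ephrin receptor, was at 118, 89 and 55.3 CPM in NSC and at 3.65, 6.48 and 1.42 CPM in LNB.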
